A study of Mus musculus with 4 samples.

Results

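The complement component and receptor genes C1qa, C1qb, C1qc, C3, C4b, Cfb, C3ar1, C5ar1 and Serping1 were followed in the heart of mice with and without tumor and with and without exercise. They were chosen by symbol, and all 9 were found among 23238 gene symbols. Male CDF1 mice were labelled as being at postnatal day 28, which is the age that the authors give at purchase. Hearts were taken later, at the end of the experiment. The mice were divided into groups of 10 mice each. These were a normal control, E(−)T(−), with neither tumor nor exercise, and a normal exercise group, E(+)T(−), as well as a cancer control, E(−)T(+), which had tumor cells but did not run, and a cancer exercise group, E(+)T(+). T(+) mice received CT26 colorectal cancer cells through the tail vein, so that this is a model of cells seeded from the blood and not of a tumor that spread by itself. E(+) mice ran on a motorized treadmill at high intensity every other day. The heart data hold 1 library per group. How many hearts went into each library is not given in the sources used here, so all differences below are between single libraries and have no replicate check.

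Complement is a set of plasma and tissue proteins that mark microbes, dying cells and immune complexes. C1q, built from the A, B and C chains that C1qa, C1qb and C1qc encode, opens the classical pathway by binding antibody or altered surfaces. C4 is cleaved next, and C3 is the protein on which the classical, lectin and alternative pathways meet. Factor B, encoded by Cfb, is the protease subunit of the alternative pathway C3 convertase, which amplifies C3 cleavage. C3ar1 and C5ar1 encode the receptors for the small fragments C3a and C5a, and Serping1 encodes C1 inhibitor, which blocks C1r and C1s. Most circulating complement is made by the liver, whereas C1q is made mainly by macrophages and other myeloid cells in tissues.

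The 3 C1q chain genes lie together on the minus strand of chromosome 4, within 18.7 kb (mm10, chr4:136880129-136898803). C4b and Cfb are both in the complement cluster of chromosome 17, at chr17:34728380-34743882 and chr17:34856374-34862518, and C3 is elsewhere on that chromosome at chr17:57203970-57228136. C3ar1 is at chr6:122847138-122856161, C5ar1 at chr7:16246743-16259540 and Serping1 at chr2:84765387-84775444, all on the minus strand. RefSeq promoter windows (GRCm38.p6, from 250 bases before to 50 bases after the start) were matched for 5 of the 9 genes, and C1qa, C4b, Cfb and Serping1 were not matched. Sequences before the furthest upstream annotated start are shown for 2 genes of the C1q cluster, whose values moved together. They are also shown for C3, the component with the highest level. The capitals in C1qc mark a match on the reverse strand to GAGGAAGT, the core bound by the myeloid factor PU.1, and no searched motif lies in the other 2 stretches.
C1qb, chr4:136886201-136886450, minus strand: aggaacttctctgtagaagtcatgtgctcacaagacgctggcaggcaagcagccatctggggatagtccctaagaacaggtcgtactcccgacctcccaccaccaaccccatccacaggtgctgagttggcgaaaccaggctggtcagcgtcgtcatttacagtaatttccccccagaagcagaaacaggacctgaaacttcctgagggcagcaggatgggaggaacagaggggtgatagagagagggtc
C1qc, chr4:136893066-136893164, minus strand: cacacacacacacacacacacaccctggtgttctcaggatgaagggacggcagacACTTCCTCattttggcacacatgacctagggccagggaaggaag
C3, chr17:57228137-57228386, minus strand: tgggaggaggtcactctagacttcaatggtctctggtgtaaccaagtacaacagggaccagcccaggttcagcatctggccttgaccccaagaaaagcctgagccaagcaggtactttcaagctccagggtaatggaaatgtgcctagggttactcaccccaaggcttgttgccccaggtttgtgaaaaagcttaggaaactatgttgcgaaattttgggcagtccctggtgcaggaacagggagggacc

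Both strands of the windows were searched for GAGGAAGT, the GAS element TTCNNNGAA, the ISRE-like element GAAANNGAA, the C/EBP core TTGCGCAA, the TATA box TATAAA and the NF-kB motif. The PU.1 core was found at −195 of C1qc and is in 3.20% of all 32851 promoter windows of this length. The C1qc window also holds an NF-kB match at −41, a motif in 8.46% of windows. An ISRE-like match was found at −66 of C5ar1 (8.56% of windows), and a TATA box at −235 of C3ar1 and at 15 of C3 (13.6% of windows). GAS (8.30% of windows) and the C/EBP core (0.183%) were in none of the 5. Positions count from the RefSeq start of each window. The GENCODE starts of C1qc and C5ar1 lie further upstream, so the matches at −41 and −66 are inside these annotated genes. All matches are letters in a window, and binding was not measured.

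The recovered depth was between 6595395 and 11546063 reads per library. The label heart was checked against 10 cardiomyocyte markers, which summed to between 356282 and 414481 normalized reads in each library, with none of them at 0 reads. Globin transcripts made up 37.3% of the cancer exercise library against 7.86% to 8.76% of the other 3, so it stands apart and every comparison with it has to be read beside the scaling between libraries. Values are log2(normalized read count + 1), as the authors deposited them. Since the libraries were read from the 3′ end of mRNA, the number of reads does not grow with transcript length. Levels are set beside each other between genes on that basis. How completely the reads of each gene were assigned to it was not checked.

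Serping1 was the most abundant of the 9 genes, with a mean of 3298 normalized reads over the 4 libraries. It was followed by C3 with 1614, C1qa with 1236, C1qc with 958 and C1qb with 852. The other 4 were lower, at 413 for C4b, 125 for C3ar1, 112 for Cfb and 59.7 for C5ar1. All 9 genes had their highest value in the cancer control. That library held the highest value of 28.6% of the 11633 genes whose mean reached 16 normalized reads. In 8 of the 9, all but C5ar1, both libraries with tumor were above both libraries without, as were those of 27.7% of the 11633 genes. For C1qc, C3ar1 and Serping1, cancer exercise was above normal exercise by no more than read sampling can give. The grouping also depended on the scaling. It held for C4b and Cfb alone when values were scaled to library totals (6.87% of all genes), and for C1qa, C1qb, C3, C4b and Cfb when scaled to the genes with at most 1% of the reads (19.2%). The lowest value was that of the normal control for 6 genes and that of normal exercise for C3, C3ar1 and C5ar1.

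**Figure D1:**
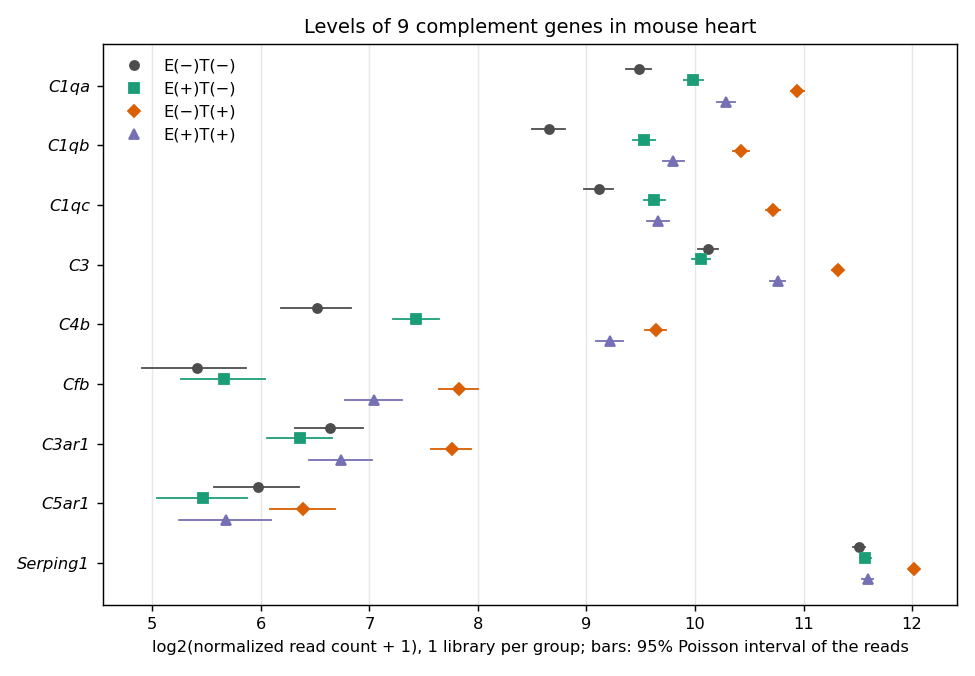
Level of each complement gene in the 4 heart libraries, as log2(normalized read count + 1) on the x axis, 1 point per library, with the 95% Poisson interval of its reads as a bar. The cancer control diamond is the rightmost of every row, and the circle, square and triangle lie close together in the row of Serping1.

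The first comparison asked what tumor cells were associated with in the heart without exercise, cancer control vs. normal control. Of the 9 genes, 7 were higher by at least 2-fold, 0 were lower, and C5ar1 and Serping1 were within 2-fold. Of the 14311 genes that reached 4 normalized reads in at least 1 of the 2 libraries, 14.6% were higher by at least 2-fold and 13.1% were lower. The reads of 8 of the 9 genes differed by more than read sampling (exact two-sided binomial test of the reads of the 2 libraries, Benjamini-Hochberg adjusted over all genes kept, at a threshold of 0.05), against 51.4% of all genes. A gene with many reads passes the read test more easily, and the share of all genes, here and below, includes genes with few reads. The median log2 fold change was 1.46 for the 9 genes and −0.01 for all genes. All 9 passed the count minimum in each of the 4 comparisons.

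C4b had the largest difference. Its values were 6.52 in the normal control, 7.43 in normal exercise, 9.64 in the cancer control and 9.21 in cancer exercise, from 79, 190, 901 and 542 reads. Both libraries with tumor were thus well above both without. The log2 fold change of cancer control vs. normal control was 3.12 (95% Clopper-Pearson interval of the reads' ratio 2.80 to 3.48), which is 8.67-fold. C4a, a near-identical neighbor that the annotation lists as a processed transcript, took between 12.9% and 14.9% of the reads of the pair in every library. Counting could have divided reads between them, so the level of C4b alone is uncertain.

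Cfb was the gene with the next largest difference. It was read 36 times in the normal control, 55 in normal exercise, 256 in the cancer control and 120 in cancer exercise, for values of 5.41, 5.66, 7.83 and 7.05. The log2 fold change of the tumor library was 2.42 (interval 1.94 to 3.0). C3 was at 10.12 in the normal control, 10.06 in normal exercise, 11.32 in the cancer control and 10.76 in cancer exercise, on 969, 1176, 2887 and 1587 reads. Its 2 libraries without tumor were close to each other, and the tumor library without exercise was higher by 1.20 (1.09 to 1.30). C4b, Cfb and C3 had both libraries with tumor above both without as deposited, but for C3 the cancer exercise library was no longer above normal exercise when scaled to library totals (−0.01 against 0.71).

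The C1q chain genes were higher by 1.46 to 1.77 on the log2 scale. C1qa was at 9.48 in the normal control, 9.99 in normal exercise, 10.94 in the cancer control and 10.29 in cancer exercise, from 622, 1120, 2229 and 1143 reads. C1qb was at 8.65, 9.53, 10.43 and 9.80 in the same order, from 350, 817, 1559 and 815 reads. C1qc was at 9.11, 9.62, 10.72 and 9.66, from 482, 871, 1911 and 739 reads. All 3 genes had the same order of libraries, with cancer control highest and normal control lowest. The log2 fold change without exercise was 1.46 (1.33 to 1.59) for C1qa, 1.77 (1.61 to 1.95) for C1qb and 1.61 (1.46 to 1.76) for C1qc. In a whole heart, more cells of a type and more RNA per cell cannot be told apart.

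The 2 fragment receptors were read far less than the components. C3ar1 was at 6.64 in the normal control, 6.36 in normal exercise, 7.76 in the cancer control and 6.74 in cancer exercise, from 86, 90, 244 and 97 reads. The cancer control alone stood apart, and its difference from the normal control was 1.12 (0.77 to 1.5). C5ar1 was at 5.98, 5.47, 6.39 and 5.68, from 54, 48, 94 and 46 reads. Its difference was 0.42 (−0.08 to 0.93), which read sampling can give. Serping1, the inhibitor, was at 11.52, 11.57, 12.02 and 11.59, from 2552, 3356, 4704 and 2820 reads, and its 3 libraries other than the cancer control lay close together. Its difference of 0.50 (0.43 to 0.57) was beyond read sampling but within 2-fold. When library totals set the scale, or the totals of genes with at most 1% of the reads, C3ar1 was within 2-fold and 6 genes remained above it.

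**Figure D2:**
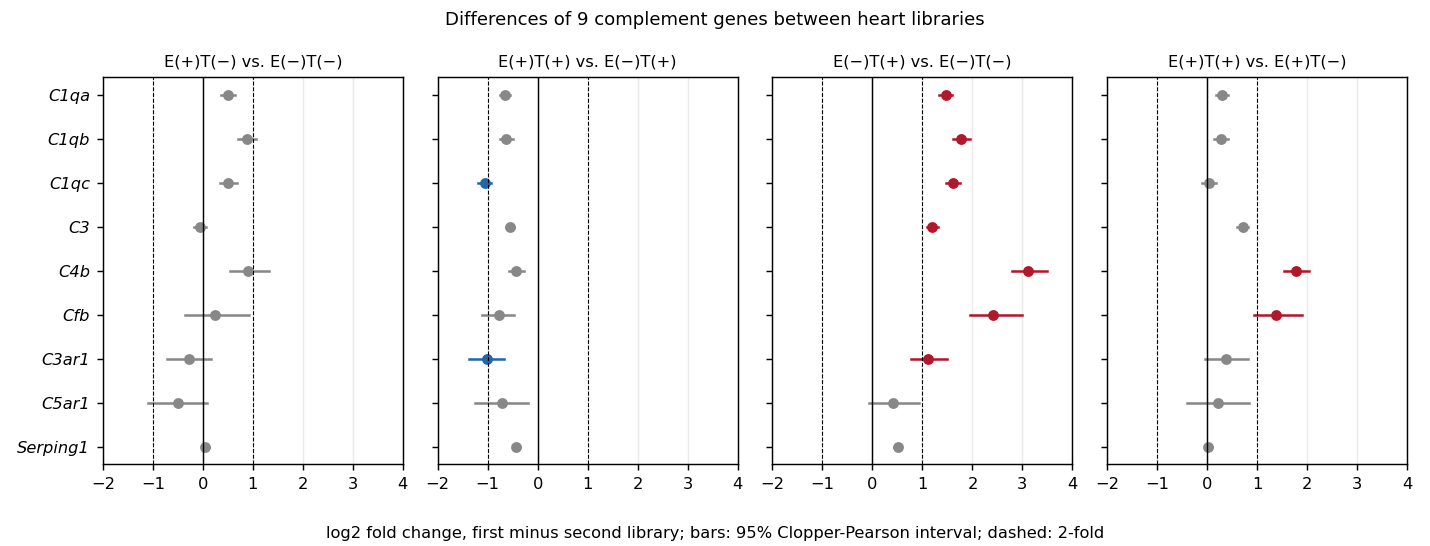
Log2 fold change of each complement gene in the 4 comparisons, with the 95% Clopper-Pearson interval of the reads' ratio as a bar and dashed lines at 2-fold (red, higher by at least 2-fold; blue, lower; grey, within 2-fold). The genes are right of 0 in cancer control vs. normal control, where 7 are red, and left of 0 in cancer exercise vs. cancer control, where C1qc and C3ar1 are blue.

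The second comparison asked what exercise was associated with in the heart of mice with tumor, cancer exercise vs. cancer control. The cancer control library is shared with the first comparison, so a high value there enters both. Of the 9 genes, 2 were lower by at least 2-fold, C1qc and C3ar1, and 0 were higher, beside 10.0% of 14357 genes lower and 9.39% higher. The reads of all 9 differed by more than read sampling, against 39.7% of all genes. The median log2 fold change was −0.65 for the 9 genes and −0.01 for all genes. Scaled to library totals, all 9 were lower by at least 2-fold, but there the median of all genes was itself −0.59.

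The log2 fold change was −1.06 (−1.18 to −0.94) for C1qc and −1.02 (−1.38 to −0.68) for C3ar1, both close to the 2-fold limit. C3ar1 passed it narrowly, and it was within 2-fold with a pseudocount of 4 or when reads were subsampled to the smallest library. C1qa and C1qb differed by −0.65 (−0.76 to −0.55) and −0.63 (−0.75 to −0.50). Cfb differed by −0.78 (−1.11 to −0.46) and C5ar1 by −0.71 (−1.26 to −0.20). The smallest differences were −0.55 (−0.64 to −0.46) for C3, −0.43 (−0.50 to −0.36) for Serping1 and −0.42 (−0.58 to −0.27) for C4b. The 9 genes were thus all lower in the exercised library with tumor, by 1.34-fold for C4b to 2.08-fold for C1qc, and this direction was the same under each of the 3 scalings.

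The third comparison asked the same in mice without tumor, normal exercise vs. normal control. Here 0 of the 9 genes differed by 2-fold in either direction, beside 5.88% of 13930 genes higher and 6.40% lower. The reads of 4 genes differed by more than read sampling, against 20.6% of all genes. C4b differed by 0.91 (0.54 to 1.32), C1qb by 0.88 (0.70 to 1.07), C1qa by 0.51 (0.36 to 0.65) and C1qc by 0.51 (0.35 to 0.68). C4b was above 2-fold when reads were subsampled to the smallest library. For the other 5, the differences were 0.25 (−0.36 to 0.92) for Cfb, 0.05 (−0.02 to 0.13) for Serping1, −0.06 (−0.19 to 0.06) for C3, −0.28 (−0.72 to 0.17) for C3ar1 and −0.51 (−1.10 to 0.08) for C5ar1. The intervals of all 5 include 0. The 4 genes whose reads differed encode classical pathway components, but the rest of that pathway was mixed. C4a was at 0.85 (−0.08 to 2.04), C1s1 at 0.04, C1ra at −0.04, C1rb at −0.175 and C1s2 at −0.22. C2 was lower by at least 2-fold, at −1.23.

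The fourth comparison set both exercise libraries beside each other, cancer exercise vs. normal exercise. C4b and Cfb were higher by at least 2-fold, 2 of the 9 genes, and 0 were lower, beside 12.0% of 14282 genes higher and 11.1% lower. The difference was 1.78 (1.55 to 2.03) for C4b and 1.39 (0.93 to 1.89) for Cfb. C3 was higher by 0.71 (0.60 to 0.82), C1qa by 0.30 (0.18 to 0.42) and C1qb by 0.27 (0.13 to 0.41), within 2-fold but beyond read sampling, so that the reads of 5 of the 9 differed, against 47.0% of all genes. For C1qc at 0.04 (−0.11 to 0.18), C3ar1 at 0.38 (−0.05 to 0.81), C5ar1 at 0.21 (−0.40 to 0.83) and Serping1 at 0.02 (−0.05 to 0.10), the intervals include 0. All 9 values were above 0 as deposited, but 7 of them, all but C4b and Cfb, were below 0 when scaled to library totals, where the median of all genes was −0.72. On that scale C4b was at 1.06 and Cfb at 0.67, so that Cfb was then within 2-fold.

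The shares of the 3 C1q chains were compared because they do not depend on the scaling between libraries. C1qa gave 42.8% of their reads in the normal control (95% Clopper-Pearson interval 40.2 to 45.4), 39.9% (38.1 to 41.7) in normal exercise, 39.1% (37.8 to 40.4) in the cancer control and 42.4% (40.5 to 44.3) in cancer exercise. C1qb gave 24.1% (21.9 to 26.4), 29.1% (27.4 to 30.8), 27.4% (26.2 to 28.5) and 30.2% (28.5 to 32.0). C1qc gave 33.1% (30.7 to 35.6), 31.0% (29.3 to 32.8), 33.5% (32.3 to 34.8) and 27.4% (25.7 to 29.1). The chain genes were thus near a fixed ratio but not at one. The share of C1qc in cancer exercise lay below its intervals in the other 3 libraries, and the interval of C1qb in the normal control lay below those of both exercise libraries and met the lower edge of that of the cancer control. These intervals cover counting error only.

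**Figure D3:**
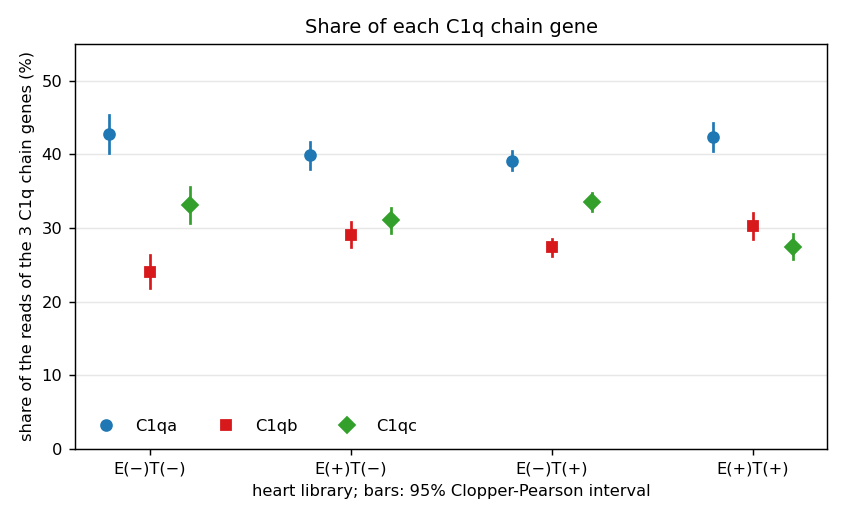
Share of C1qa, C1qb and C1qc in the summed reads of the 3 genes in each library, in percent on the y axis, with the 95% Clopper-Pearson interval as a bar. The share of C1qc is 27.4% in cancer exercise and between 31.0% and 33.5% in the other libraries.

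Markers of macrophages, the tissue cells known for C1q, were set beside these genes. Of 18 macrophage markers, 10 were higher and 2 lower by at least 2-fold in cancer control vs. normal control, with a median of 1.09. Of all genes, 14.6% were higher and 13.1% lower in that comparison. The scavenger receptor Cd163 differed by 1.56, the mannose receptor Mrc1 by 1.14, Lyve1 by 2.15, Lyz2 by 1.44 and the lysosomal Cd68 by 1.86. Csf1r, the receptor for the macrophage growth factor, was at −0.11 (−0.24 to 0.02) and Adgre1, which encodes F4/80, at −0.37 (−0.97 to 0.22). The 2 lower markers were Timd4, with 32 reads in the normal control and 16 in the cancer control, and Cd209f, with 28 and 9. In cancer exercise vs. cancer control, 6 markers were lower and 1 was higher, beside 10.0% and 9.39% of all genes. The median of the markers was −0.73. Cd68 was at −1.65, Lyz2 at −1.56, Mrc1 at −1.27 and Cd163 at −1.15, while Cd14, which encodes a co-receptor for bacterial lipopolysaccharide, was at 1.36. In cancer exercise vs. normal exercise the markers had a median of −0.55, with 11 of 17 below 0. By at least 2-fold, 3 markers were lower and 2 higher there, beside 11.1% and 12.0% of all genes. The mean of the C1q chains was at 0.20 in that comparison. In normal exercise vs. normal control the median was 0.15, with 1 marker higher and 1 lower, beside 5.88% and 6.40% of all genes. The mean of the C1q chains was at 0.63 there. The summed level of the list was 4423 normalized reads in the normal control, 5462 in normal exercise, 9159 in the cancer control and 6308 in cancer exercise, and Mertk alone had no read in some library, the normal control and cancer exercise.

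The summed C1q level was 1667, 2539, 5028 and 2949 normalized reads, the same order of libraries as the list. The place of cancer exercise above normal exercise in the list rested on Lyve1. Without Lyve1, left out after the values were seen, the sums were 4047, 4826, 7488 and 4778. Per unit of the list it was 0.377 in the normal control, 0.465 in normal exercise, 0.549 in the cancer control and 0.468 in cancer exercise, so that the ratio was again highest in the cancer control. Per read of Csf1r it was 1.66, 2.57, 5.42 and 4.79, and per read of Cd68 it was 18.6, 29.3, 15.3 and 28.4. The order of the libraries therefore depended on the marker used. The part of macrophage number in the C1q differences was not tested.

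**Figure D4:**
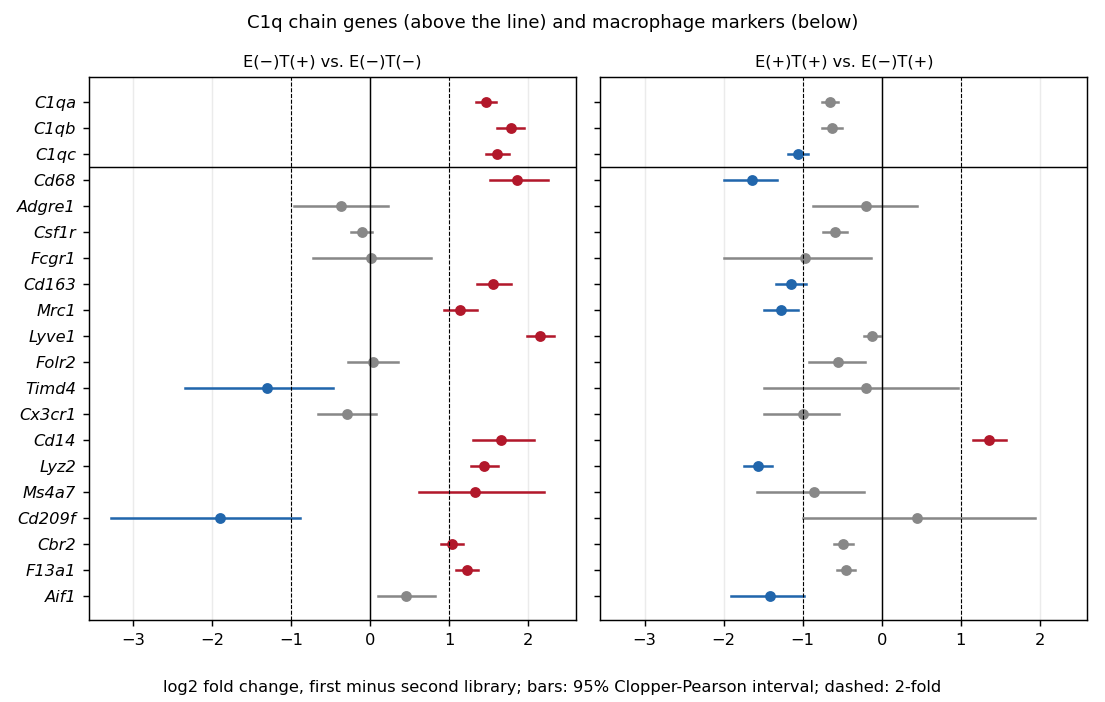
Log2 fold change of the C1q chain genes, above the line, and of 17 of the 18 macrophage markers, those that reached 16 normalized reads, below it, with 95% Clopper-Pearson intervals and dashed lines at 2-fold (red, higher by at least 2-fold; blue, lower; grey, within 2-fold). In cancer control vs. normal control, Cd68, Cd163, Mrc1 and Lyve1 are on the same side as C1q, and Csf1r and Adgre1 are near or below 0.

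Markers of hepatocytes, the main makers of circulating C3, C4 and factor B, also differed with tumor. Their summed level was 247 in the normal control, 224 in normal exercise, 1311 in the cancer control and 995 in cancer exercise. By at least 2-fold, 6 of 8 were higher in cancer control vs. normal control, beside 14.6% of all genes. Apoa2 and Fgb had 0 reads in the normal control and Apoa2 also in normal exercise. Ahsg, which encodes fetuin-A, made up 42.4% of that sum in the normal control, 65.3% in normal exercise, 79.8% in the cancer control and 54.8% in cancer exercise, and differed by 3.31 (3.02 to 3.65) between the cancer control and the normal control. Alb, which encodes albumin, had 7 reads in the normal control, 4 in normal exercise, 55 in the cancer control and 107 in cancer exercise. Cyp2e1 went the other way with tumor without exercise, from 6.88 in the normal control to 6.21 in the cancer control, on 102 and 83 reads. With exercise it was higher with tumor, at 5.76 in normal exercise and 7.18 in cancer exercise. In cancer exercise vs. normal exercise, 8 of 8 hepatocyte markers were higher by at least 2-fold, beside 12.0% of all genes. In cancer exercise vs. cancer control, the hepatocyte markers went both ways, with 2 of 8 higher by at least 2-fold and 0 lower. Of all genes, 9.39% were higher and 10.0% lower in that comparison. Alb was at 1.25 (0.79 to 1.77) and Ahsg, like C3, C4b and Cfb, was below 0, at −0.94 (−1.09 to −0.79). Neutrophil markers summed to 146, 105, 4196 and 6547 normalized reads in the same order of libraries, so they too were higher in both libraries with tumor. Their part in the differences of the complement genes was not tested.

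The rest of the pathway was described with 45 further complement genes. In cancer control vs. normal control, 29 of them passed the count minimum, 11 were higher and 4 lower by at least 2-fold. Of all genes, 14.6% were higher and 13.1% lower there. In cancer exercise vs. cancer control, 3 of 28 were higher and 7 lower, beside 9.39% and 10.0% of all genes. In normal exercise vs. normal control, 5 of 30 were higher and 3 lower, beside 5.88% and 6.40% of all genes. In cancer exercise vs. normal exercise, 8 of 30 were higher and 4 lower, beside 12.0% and 11.1% of all genes. Scaled to library totals, the last comparison had 6 higher and 11 lower, where the median of all genes was −0.72. Cancer exercise vs. cancer control then had 2 higher and 14 lower, where that median was −0.59. As deposited, the median log2 fold change of the further complement genes kept was 0.32 in cancer control vs. normal control. It was −0.46 in cancer exercise vs. cancer control, −0.02 in normal exercise vs. normal control and 0.08 in cancer exercise vs. normal exercise. Counted by arm with the 9 genes included, those higher in cancer control vs. normal control were 5 of 10 in the classical pathway, 1 of 4 in the lectin pathway, 3 of 4 in the alternative pathway, 2 of 3 in the terminal pathway, 4 of 8 receptors and 3 of 9 regulators, and those lower were 2 in the lectin pathway, 1 in the alternative pathway and 1 regulator. In cancer exercise vs. cancer control, those lower were 3 of 10 in the classical pathway, 1 of 4 in the lectin pathway, 1 of 3 in the terminal pathway, 3 of 7 receptors and 1 of 9 regulators, and those higher were 1 each in the lectin and alternative pathways and among the regulators. Of the 26 genes that reached 16 normalized reads in a library, 15 were highest in the cancer control. That library held the highest value of 28.6% of the 11633 genes with a mean of at least 16. A gene could enter the 26 through the cancer control alone, as Cfi did with 43.0 normalized reads there and 9.91 in cancer exercise. The share of all genes rests on the mean instead, so the count and the share are not comparable.

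In the classical pathway, C4a went with C4b, from 12 reads in the normal control and 29 in normal exercise to 133 in the cancer control and 95 in cancer exercise. Its difference without exercise was 2.98 (2.24 to 4.08). Reads could have been divided between C4a and C4b, so they may not be separate observations in the pathway counts. The proteases that act with C1q differed less: C1ra was at 0.46, C1s1 at 0.76 and C1rb at 0.15 in that comparison, all within 2-fold. C2, which supplies the protease of the classical C3 convertase, had 51, 27, 79 and 23 reads and was lower in both exercise comparisons, with log2 fold changes of −1.23 (−1.99 to −0.56) without and −1.43 (−2.21 to −0.78) with tumor. C1s2 was lower in cancer exercise vs. cancer control, at −1.03 (−1.84 to −0.33), on 22 and 57 reads.

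In the lectin pathway, ficolin A (Fcna), a recognition molecule of macrophages, had 42 reads in the normal control, 50 in normal exercise, 732 in the cancer control and 217 in cancer exercise. Its log2 fold change was 3.71 (3.30 to 4.23) with tumor in the resting libraries and −1.44 (−1.67 to −1.22) with exercise in the tumor libraries. The collectin Colec11 went the other way, with 135, 111, 32 and 39 reads and a difference of −2.42 (−3.06 to −1.89) in cancer control vs. normal control. Colec12, a scavenger receptor of the collectin family, was lower in cancer exercise vs. normal exercise, at −1.04 (−1.60 to −0.55).

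In the alternative pathway, properdin (Cfp), which stabilizes the C3 convertase, differed by 1.71 (1.21 to 2.30) in cancer control vs. normal control, with 36 and 156 reads. Cfd, which encodes adipsin, the protease that activates factor B, had a pattern of its own. It had 1071 reads in the normal control, 375 in normal exercise, 395 in the cancer control and 1724 in cancer exercise, a difference of −1.85 (−2.03 to −1.68) with exercise without tumor and 2.43 (2.28 to 2.60) with exercise with tumor. Cfd is a gene of fat cells, and the summed level of 6 adipocyte markers was likewise higher in the normal control and in cancer exercise than in the other 2 libraries, at 1285, 501, 351 and 1196 normalized reads. The part of fat tissue in the samples was not tested. The terminal pathway was hardly read, with at most 22 reads for any gene in a library. C6, which takes part in the membrane attack complex, had 1, 6, 22 and 17 reads and a difference of 3.14 (1.45 to 9.45) in cancer control vs. normal control.

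Among receptors, Vsig4, the C3b receptor of resident macrophages, had 29 reads in the normal control, 23 in normal exercise, 300 in the cancer control and 129 in cancer exercise. Its difference was 2.95 (2.44 to 3.60) without and 2.72 (2.11 to 3.47) with exercise. Itgam and Itgb2, which encode the chains of complement receptor CR3, differed by 2.85 (2.20 to 3.74) and 2.40 (1.75 to 3.26) in cancer control vs. normal control. With exercise in the tumor libraries they were at −1.64 (−2.17 to −1.17) and −1.63 (−2.25 to −1.10). Cr2, a receptor of B cells, was read 28 times in normal exercise, 3 times in the normal control and 1 time in each library with tumor.

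Among regulators, Clu, which encodes the chaperone clusterin, an inhibitor of the terminal complex, was the most abundant, with 2153, 3438, 16170 and 7814 reads. Its difference was 2.53 (2.47 to 2.60) in cancer control vs. normal control and −0.74 (−0.78 to −0.70) in cancer exercise vs. cancer control. Factor I (Cfi), the protease that inactivates C3b and C4b, had 2, 2, 48 and 9 reads and differed by 3.65 (2.28 to 7.29). Vtn, which encodes vitronectin, was lower with tumor, at −1.45 (−1.95 to −1.0) without and −1.34 (−2.0 to −0.78) with exercise. Cd55, a membrane inhibitor, was higher by 1.02 (0.02 to 2.18) in cancer exercise vs. cancer control on 22 and 13 reads, which did not pass the read test after adjustment (adjusted p = 0.100, exact binomial).

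**Figure D5:**
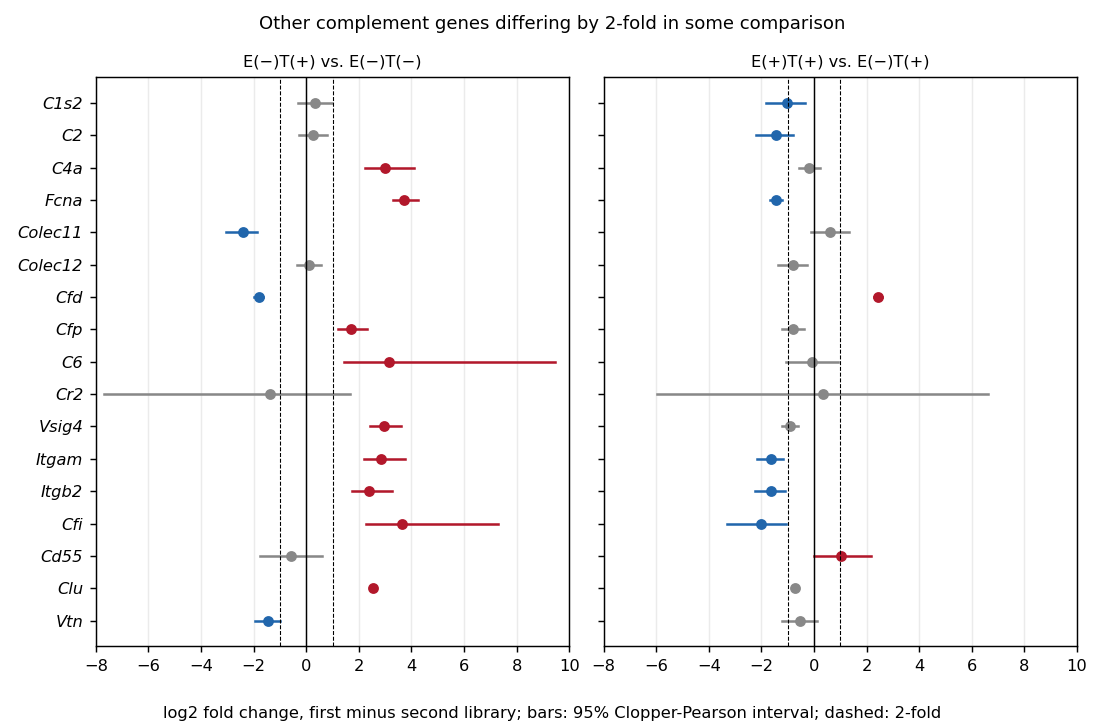
Log2 fold change of 17 other complement genes that differed by at least 2-fold in some comparison and reached 16 normalized reads, with 95% Clopper-Pearson intervals and dashed lines at 2-fold (red, higher by at least 2-fold, blue, lower, grey, within 2-fold). Vsig4, Itgam, Itgb2, Cfi, Fcna and Clu are to the right of 2-fold in cancer control vs. normal control, and Colec11, Cfd and Vtn to the left.

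Genes with the most similar profile over the 4 libraries were sought among the 7054 genes whose mean reached 100 normalized reads, by the root mean square difference of centred log2 values. For the mean of the C1q chains these were Osmr, a subunit of the oncostatin M receptor (0.059), Tyrobp, the myeloid adaptor DAP12 (0.091), and Ankrd23, a muscle ankyrin repeat gene (0.095). Osmr was at 6.45, 6.95, 8.09 and 7.24, in the same order of libraries as the C1q genes. For C3 they were Ppfia1 (0.035), Anxa9 (0.043) and Tgfbr3 (0.050), and for Cfb Prg4 (0.054), Pla2g7 (0.077) and Fkbp5 (0.111). For Serping1 they were Dicer1 (0.014), Vwa5a (0.022) and Mzt2 (0.023). With 4 libraries that share their scaling, such likeness is a description of 4 values.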

How the data were processed

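Heart RNA of the 4 groups was analysed, 1 library each. The authors made QuantSeq 3′ libraries, aligned reads with Bowtie2 to mm10, counted them with bedtools and normalized them with edgeR's quantile method. The authors deposited log2 of the normalized read count + 1. Whole reads were recovered from these by a fit of library sizes and 1 dispersion (0.149), which gave back each value within 0.00054. Of 25460 values from 5 to 99 reads, 100% were whole to within 0.1. The design allowed for counts or normalized values, and fold changes were taken from the deposited values.

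A call needed a 2-fold difference and 4 normalized reads in at least 1 of the 2 libraries. Fold changes on this scale understate the change of genes with few reads. The exact binomial test of reads, adjusted by Benjamini-Hochberg, compares libraries and not conditions. Intervals cover counting error only. Copies made by PCR are counted as reads, so the intervals and the read test can be too narrow even for that error. The recovery of reads and the direction of 2-fold calls were tested on data simulated with the same model. The read test, its adjustment and the intervals were not tested in this way.

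Named were the 9 genes, each gene of the 6 complement lists called in some comparison with 16 normalized reads in a library, the 3 nearest profiles, and up to 4 of the most abundant genes of each of 11 marker lists, with others of these lists where the text compares them. A gene under this rule is not reported here. These genes and lists were chosen with earlier results of these data known. A symbol with several rows was taken by its highest mean. Gene positions are from GENCODE M21 and promoters from RefSeq. Computations ran in Python 3.11.15 (pandas 2.3.3, scipy 1.17.1, numpy 2.4.6), with figures by matplotlib 3.10.9. Alternatives covered scaling, count minimum, pseudocount, depth and fold threshold.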

Additional observations from a re-analysis of the deposited data

Results flagged for a closer look

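In 4 of the 9 genes, C1qa, C1qb, C1qc and C4b, the exercise library was higher than its control without tumor and lower with tumor, in both cases beyond read sampling. Of the 13384 genes that passed the count minimum in both comparisons, 2.97% had this pattern. The difference with tumor minus that without tumor was −1.16 for C1qa, −1.50 for C1qb, −1.57 for C1qc and −1.34 (log2) for C4b. With 1 library per group, this difference between the exercise comparisons was not tested against the spread between mice. The plot of differences shows both comparisons.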

How the results depend on the processing

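No paired analysis was possible because each group has 1 library, and leaving out a replicate was not possible for the same reason. Of 7 alternatives, 4 can change a difference and the others only a call. Under those 4, 113 of 144 differences of the 9 genes stayed within their counting interval and 31 moved further, and 10 changed sign, all in cancer exercise vs. normal exercise and 7 of them under library totals. C1qc and Serping1 were also below 0 there when 12 genes with more than 1% of a library's reads were left out of the totals, and C5ar1 after subsampling. Library totals shifted the median of all genes to −0.59 in cancer exercise vs. cancer control, −0.16 in cancer control vs. normal control and −0.72 in cancer exercise vs. normal exercise. There the calls became 9 of the 9 genes and 16 other complement genes in the first of these, and 1 of the 9 in the last. Without a count minimum, the other complement genes called were 13 in normal exercise vs. normal control, 19 in cancer exercise vs. cancer control, 24 in cancer control vs. normal control and 19 in cancer exercise vs. normal exercise, and with a minimum of 16 they were 4 in the first. For the 9 genes in cancer exercise vs. cancer control, calls were 1 with a pseudocount of 4 and 1 after subsampling, and 6 at a 1.5-fold threshold. In normal exercise vs. normal control they were 1 after subsampling and 2 at 1.5-fold. At 1.5-fold, other complement genes called were 13 in normal exercise vs. normal control, 17 in cancer exercise vs. cancer control and 19 in cancer exercise vs. normal exercise. Genes with few reads, such as C5ar1 and those of the terminal pathway, are limited by depth.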

Other observations

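Markers of other cell types were also counted. Of all genes, 14.6% were higher and 13.1% lower by at least 2-fold in cancer control vs. normal control. In cancer exercise vs. cancer control, these shares were 9.39% and 10.0%. The lists are short, so a count not far from these shares says little. Of 9 markers of recruited monocytes, 6 were higher by at least 2-fold in cancer control vs. normal control, and 4 were lower in cancer exercise vs. cancer control, although Ccr2, the chemokine receptor of these cells, had 27 to 30 reads in those 3 libraries. The neutrophil genes S100a8 and S100a9 differed by 4.82 and 4.55 in cancer control vs. normal control. In cancer exercise vs. cancer control, where C3ar1 and C1qc were lower, S100a8 differed by a further 1.06. S100a9 was within 2-fold there, at 10.529 in the cancer control and 11.315 in cancer exercise. Of 11 neutrophil markers kept in that comparison, 4 were higher and 1 lower by at least 2-fold. The lower marker was Lcn2, at 9.955 in the cancer control and 8.652 in cancer exercise. Of 10 fibroblast markers, 3 were higher in cancer control vs. normal control and 5 lower in cancer exercise vs. cancer control. Of 9 endothelial markers, 3 were lower in cancer control vs. normal control. Dendritic cell markers summed to between 66.6 and 90.9 normalized reads and mast cell markers to between 140.0 and 234.8 per library. All 9 erythroid markers that were read were higher in cancer exercise vs. cancer control, with a median of 3.24.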
